A study of Mus musculus with 6 samples.

Results

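Phosphoinositide 3-kinase (PI3K), AKT and FOXO3 signaling was examined through 9 genes, found in the deposited count table by exact match of their symbols: the catalytic subunits Pik3ca, Pik3cb, Pik3cd and Pik3cg, the regulatory subunits Pik3r1 and Pik3r5, the lipid phosphatase Inpp5d, the kinase Akt1 and the transcription factor Foxo3. All 9 were present among the 16254 genes of the table and passed the filter on low counts that left 13498 genes to test. The cells were eosinophils differentiated from the bone marrow of C57BL/6 mice aged 6 to 12 weeks, treated on culture day 12 and harvested after 24 h. In the EV group, 3 cultures received extracellular vesicles (EVs) that activated T helper type 2 (Th2) cells had released, isolated from culture medium by size exclusion chromatography and used at 5e9 EVs per ml in the eosinophil cultures of the study. In the sham group, 3 cultures received medium that had never held T cells and had gone through the same isolation. All cultures had the C57BL/6 genotype, and the question was how gene expression differed between EV- and sham-treated cells. The labels call the cultures of a group biological replicates without saying which animals or EV preparations they came from, so p-values measure the spread between these cultures.

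Class I PI3K phosphorylates a membrane lipid to make the second messenger PIP3. The α, β and δ catalytic subunits are held by p85-type regulatory subunits, and α and δ act mainly below tyrosine kinase-coupled and cytokine receptors. The γ subunit is held by p101 or p84 and acts mainly below G protein-coupled receptors. PIP3 recruits AKT, which phosphorylates FOXO factors and thereby keeps them out of the nucleus, and lipid phosphatases such as SHIP1 lower PIP3 again. In eosinophils the δ and γ forms are the leukocyte-enriched catalytic subunits, and the pathway is known for its part in chemotaxis and in survival signals from cytokine receptors. Only mRNA was measured here, so the values say nothing of kinase activity, phosphorylation or the location of a protein.

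The estimated counts summed to between 23697573 and 37874393 per culture. Normalized counts, given below for each gene, are estimated counts scaled to a common library size with TMM, a scaling that takes most genes as unchanged. The 12 listed eosinophil genes were detected in all 6 cultures, from Prg2, which carried most of the sum, down to Ltc4s at 31.6 to 41.4 normalized counts in sham, and they summed to 30458 to 38386 CPM (counts scaled to a common total per library) in sham and 43434 to 48551 in EV cultures. Of them, 8 were higher with EVs and the other 4 did not pass, with a median log2 fold change of 0.71. The 13 listed macrophage genes summed to 1526 to 2114 CPM in sham and 1333 to 1494 in EV cultures. Of them, 10 were lower with EVs, with C1qa, C1qb, C1qc, Mertk and Cd14 among these, 1 was higher (Adgre1) and the median log2 fold change was -2.48. Adgre1 had the highest count of this list in every culture, with means of 21326 normalized counts in sham and 32764 in EV cultures. The sum thus holds its rise beside the fall of the 10 lower genes, and moved less than they did. Sham replicate 1 held the lowest macrophage sum of the sham cultures. The 10 listed basophil and mast cell genes, 8 of them in the table, summed to 146 to 193 CPM in sham and 375 to 443 in EV cultures. Of the 7 tested, 5 were higher and the other 2 did not pass. The neutrophil list summed to 654 to 782 CPM in sham and 616 to 736 in EV cultures, but its genes moved in both directions. Of its 10 genes in the table, 2 were higher (Ly6g 6.27-fold and Cxcr2 3.66-fold) and 5 were lower (S100a8, S100a9, Ltf, Camp and Mmp8). Ngp had the highest count of the list in every culture and did not pass. The dendritic cell list summed to 38.7 to 43.0 and 14.9 to 15.8 CPM, with Itgae as the only 1 of 5 tested to be called lower. The T cell list summed to 10.9 to 27.4 CPM in sham and 2.10 to 4.06 in EV cultures. Most of the sum in sham cultures was Cd28, which fell (292, 707 and 679 normalized counts in sham and 27.0, 47.1 and 53.1 in EV cultures). Cd3d had 31.5, 71.1 and 12.2 in sham and 28.0, 66.0 and 51.4 in EV cultures and did not pass, and the other T cell genes, all under the filter on low counts, had at most 34.3. The part of these other cells in the results that follow was not tested, and fewer cells of a type cannot be told apart from less RNA per cell in such bulk samples.

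In EV- versus sham-treated eosinophils, 3 of the 9 genes were higher (Pik3cd, Pik3r1 and Foxo3) at an adjusted p under 0.01, 1 was lower (Pik3cb), and 5 did not pass. Over all 13498 genes tested, 12.1% were called higher and 11.6% lower. Only Pik3cd also changed at least 2-fold, a rule that called 3.1% of all genes higher and 6.35% lower. In 8 of the 9 genes the cultures of the groups did not overlap, 6 with EV above sham and 2 with EV below, where 49.6% of all genes tested did not overlap. The median log2 fold change was 0.14 over the 9 genes and -0.01 over all genes tested. Scaling on total counts alone, without TMM, moved the median of all genes tested to -0.16 and the calls over all genes from 1632 higher and 1572 lower to 1036 higher and 2342 lower. Under that scaling 1 of the 9 genes, Pik3cd, stayed past the threshold as higher, and Pik3cg joined Pik3cb as lower.

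**Figure D1:**
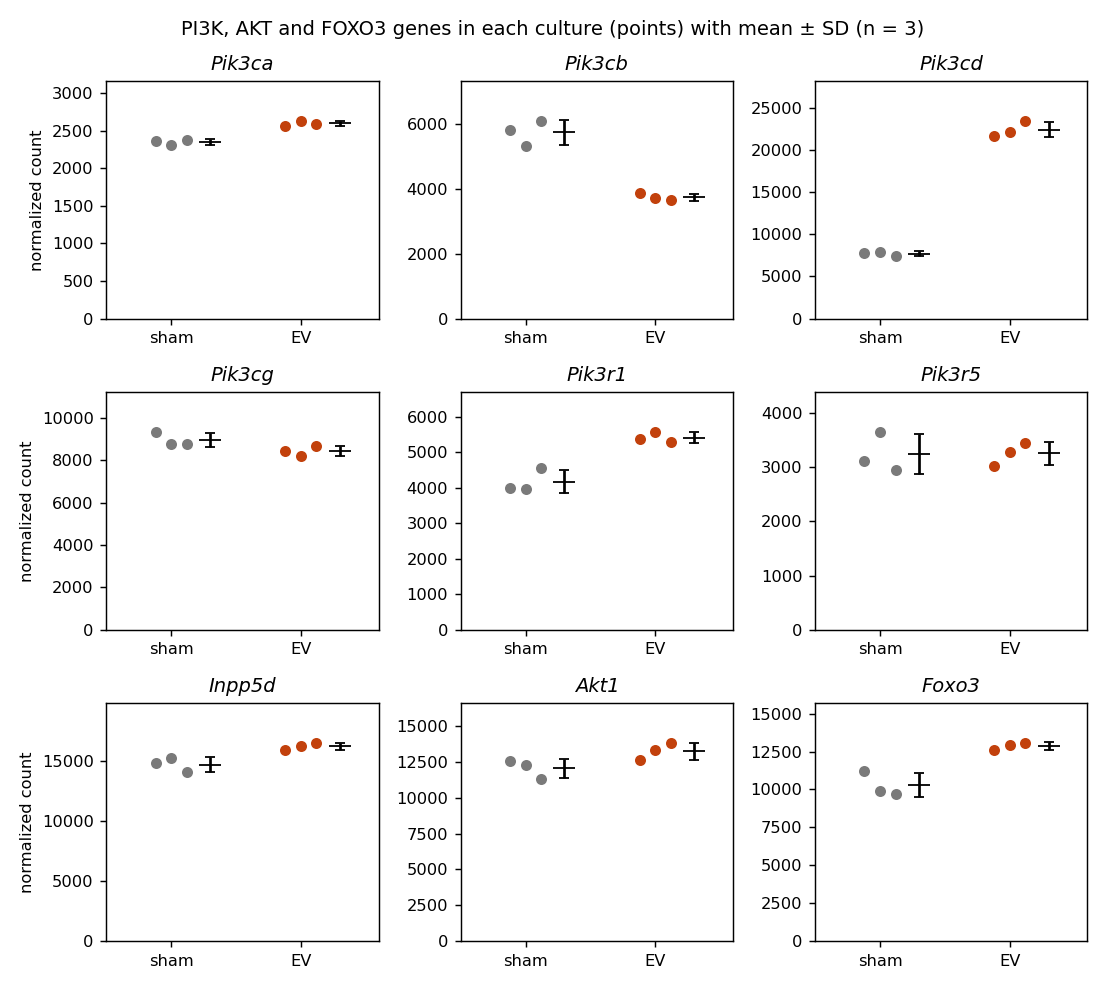
Normalized counts (y axis, from 0) of each of the 9 genes in the 3 sham (gray) and 3 EV cultures (orange), with the mean and SD of each group in black. Pik3cd stands apart, with all EV cultures at 21692 or more and all sham cultures at 7915 or less, while the cultures of the groups overlap for Pik3r5.

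Pik3cd, which encodes the leukocyte-enriched catalytic subunit p110δ, showed the largest change of the 9 genes. Its normalized counts were 7803, 7915 and 7403 in the sham cultures and 21692, 22067 and 23457 in the EV cultures. Every EV culture lay far above every sham culture, and both groups were tight. The means were 7707 ± 269 (SD, n = 3) in sham and 22405 ± 929.6 (SD, n = 3) in EV cultures, a 2.91-fold rise (log2 fold change 1.54, standard error 0.057, adjusted p = 5.75e-08, 95% interval 1.41 to 1.67). Among the 1632 genes called higher, 212 had a larger fold change. In 6 fits, each without 1 culture, Pik3cd gave log2 fold changes of 1.51 to 1.57. The gene lies on the minus strand of chromosome 4 (GRCm38, 149649168 to 149702571), no annotated exon of another gene overlaps its exons, and none of its transcript sequence in 31-base words recurs in another gene.

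Pik3cb, which encodes the widely expressed catalytic subunit p110β, fell. The sham cultures had 5792, 5312 and 6089.9 normalized counts, and the EV cultures had 3850.3, 3705 and 3642. All EV cultures were below all sham cultures. The means were 5731 ± 393 (SD, n = 3) and 3732 ± 107 (SD, n = 3), or 0.651 of the sham level (log2 fold change -0.62, standard error 0.0669, adjusted p = 5.93e-05). Of the 31-base words of its transcripts, 5.98% recur in the pseudogene Gm12992, so a small part of its reads could be assigned to either. The gene lies on the minus strand of chromosome 9 (GRCm38, 99036654 to 99140621).

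The other class I catalytic genes did not pass the test. Pik3ca, the widely expressed p110α, had 2362, 2309 and 2373 normalized counts in sham and 2565, 2631 and 2590.2 in EV cultures. Its groups did not overlap, with EV above sham, but the log2 fold change of 0.14 (standard error 0.0589, 95% interval 0.01 to 0.28) did not pass (adjusted p = 0.0841). Pik3cg, which encodes p110γ, had 9335, 8743 and 8735 in sham and 8449.9, 8189.9 and 8655 in EV cultures. All EV cultures lay just below the sham cultures, with a log2 fold change of -0.08 (standard error 0.0558, 95% interval -0.21 to 0.04, adjusted p = 0.279). On total counts alone Pik3cg was at -0.23 and passed (adjusted p = 0.00557), where the median of all genes was at -0.16, and Pik3ca was at -0.0038.

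The balance among the catalytic subunits was taken from normalized counts per kilobase of the longest coding transcript of each gene, as a percent of the sum over the 4 genes. In sham cultures Pik3cd and Pik3cg stood close together. Pik3cd made up 36.6%, 38.5% and 35.8% of the sum in the sham cultures and 65.5%, 66.5% and 67.2% in the EV cultures. Its mean share went from 37.0% ± 1.38 (SD, n = 3) to 66.4% ± 0.849 (SD, n = 3), a difference of 29.4 percentage points. Pik3cg made up 35.9% ± 0.664 (SD, n = 3) in sham and 20.9% ± 0.383 (SD, n = 3) in EV cultures, while its own normalized count did not pass the test. Pik3cb went from 20.9% ± 1.40 (SD, n = 3) to 8.41% ± 0.457 (SD, n = 3), and Pik3ca from 6.22% ± 0.115 (SD, n = 3) to 4.25% ± 0.141 (SD, n = 3). Since the shares sum to 100%, a rise of Pik3cd alone lowers the others, and Pik3ca itself had 263 ± 3.83 (SD, n = 3) normalized counts per kilobase in sham and 291 ± 3.78 (SD, n = 3) in EV cultures. The 4 shares are thus not independent of each other. None of the 4 shares overlapped between groups, and each gave p = 0.1 in a two-sided exact permutation test (0.1 after adjustment over the 4 shares), the smallest value that 3 against 3 cultures allow.

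**Figure D2:**
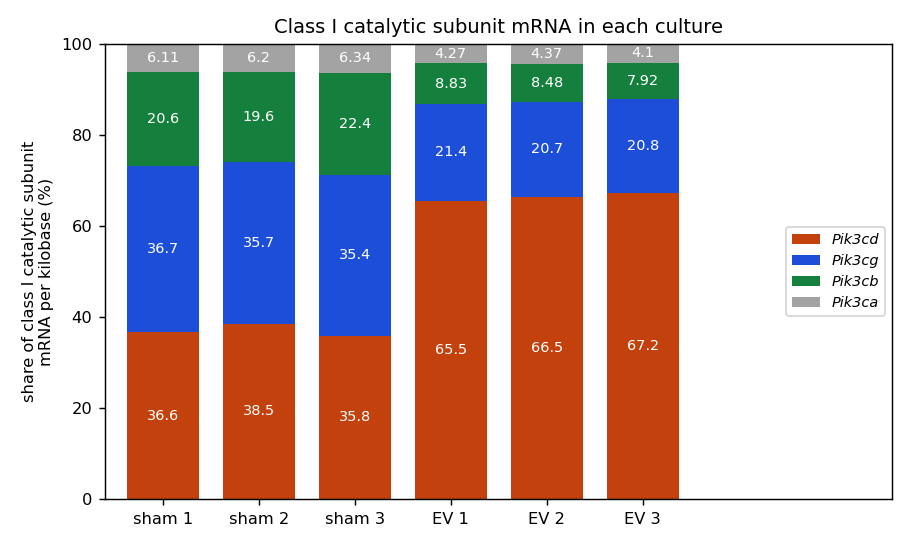
Share of each class I catalytic subunit in their summed mRNA per kilobase (y axis, percent) in each culture, as stacked bars. Pik3cd takes 35.8% to 38.5% in the sham cultures and 65.5% to 67.2% in the EV cultures, and the other subunits take less in the EV cultures.

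The sequence upstream of annotated starts was read for the 9 genes from RefSeq (GRCm38.p6), which lists 14 starts for them, 3 of these for Pik3cd. The 250 bases before 1 start of Pik3cd and 1 start of Pik3cg are shown. These genes were chosen since they stood close together per kilobase in sham cultures and apart in EV cultures. Which starts these cells used was not measured, and a link between the sequence and expression was not tested. The Pik3cd stretch lies at chr4:149698709-149698958 on the minus strand, inside the gene but outside its annotated exons, and has 53.6% G and C. The Pik3cg stretch lies at chr12:32208660-32208909 on the minus strand, just before the gene's first exon, and has 38.8% G and C.
Pik3cd: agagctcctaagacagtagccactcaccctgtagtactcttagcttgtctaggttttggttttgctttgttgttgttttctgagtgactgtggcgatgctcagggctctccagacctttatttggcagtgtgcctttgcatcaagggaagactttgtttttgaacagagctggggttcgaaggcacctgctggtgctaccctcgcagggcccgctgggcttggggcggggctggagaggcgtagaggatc
Pik3cg: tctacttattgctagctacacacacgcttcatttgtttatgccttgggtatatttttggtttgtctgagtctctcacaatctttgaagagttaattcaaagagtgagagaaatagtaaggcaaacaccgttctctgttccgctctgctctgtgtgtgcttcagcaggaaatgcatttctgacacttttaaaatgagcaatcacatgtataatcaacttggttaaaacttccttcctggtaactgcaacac
A STAT motif, spelled TTCNNNGAA and the same on both strands, was in none of the 14 windows and in 7.02% of 32851 mouse promoter windows of this length. A FOXO motif, TGTTTAC or its reverse complement GTAAACA, was in 2 of the 14 windows and in 3.17% of all. One of these matches lies 161 bases before a start of Akt1, at chr12:112675029-112675055 on the minus strand outside annotated exons, shown with 10 bases on each side and the motif in capitals.
Akt1: tctaccctctTGTTTACactcctggtg
The other match lies 92 bases before the second RefSeq start of Pik3cg, and it and the 10 bases on each side are all inside annotated exons. Such matches describe letters in a window and carry no measurement of binding.

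Of the regulatory subunits, Pik3r1, which encodes the p85α family of subunits that hold the α, β and δ catalytic subunits, was higher. It had 4004, 3967 and 4559 normalized counts in sham and 5374, 5578 and 5288 in EV cultures. All EV cultures lay above all sham cultures, with sham replicate 3 nearest to them. The means were 4177 ± 331 (SD, n = 3) and 5413 ± 149 (SD, n = 3), a 1.30-fold rise (log2 fold change 0.37, standard error 0.0693, adjusted p = 0.00202). The gene lies on the minus strand of chromosome 13 (101680563 to 101768217). The call was lost without EV replicate 2 (0.36, adjusted p = 0.0134) and on total counts alone (0.23, adjusted p = 0.0271). Pik3r2, which encodes p85β, had 1100 ± 49.3 (SD, n = 3) normalized counts in sham and 942 ± 16.9 (SD, n = 3) in EV cultures and did not pass (log2 fold change -0.22, adjusted p = 0.0527), although it passed as lower on total counts alone (-0.37, adjusted p = 0.00533).

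The regulatory subunits of p110γ differed from each other. Pik3r5, which encodes p101, had 3109, 3656 and 2951 normalized counts in sham and 3028, 3291 and 3449 in EV cultures. The groups overlapped, and the log2 fold change was 0.0084 with a 95% interval of -0.19 to 0.21 (adjusted p = 0.954). Its direction turned with the scaling and with the culture left out. Pik3r6, which encodes p84, had 838, 808 and 674 in sham and 1358, 1408 and 1432 in EV cultures. It rose 1.81-fold (log2 fold change 0.85, standard error 0.0967, adjusted p = 8.1e-05), with all EV cultures above all sham cultures. The list of G protein inputs to p110γ held Gα, Gβ, Gγ and RAS genes, not all of which act on p110γ itself. It had 3 of 13 genes higher (23.1%) and 1 lower (7.69%), beside 12.1% and 11.6% of all genes tested, with a median log2 fold change of 0.10. Gnai2, an inhibitory Gα subunit, rose (log2 fold change 0.37, adjusted p = 0.00027). Gng2, a Gγ subunit, fell (-0.84, adjusted p = 2.14e-05).

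**Figure D3:**
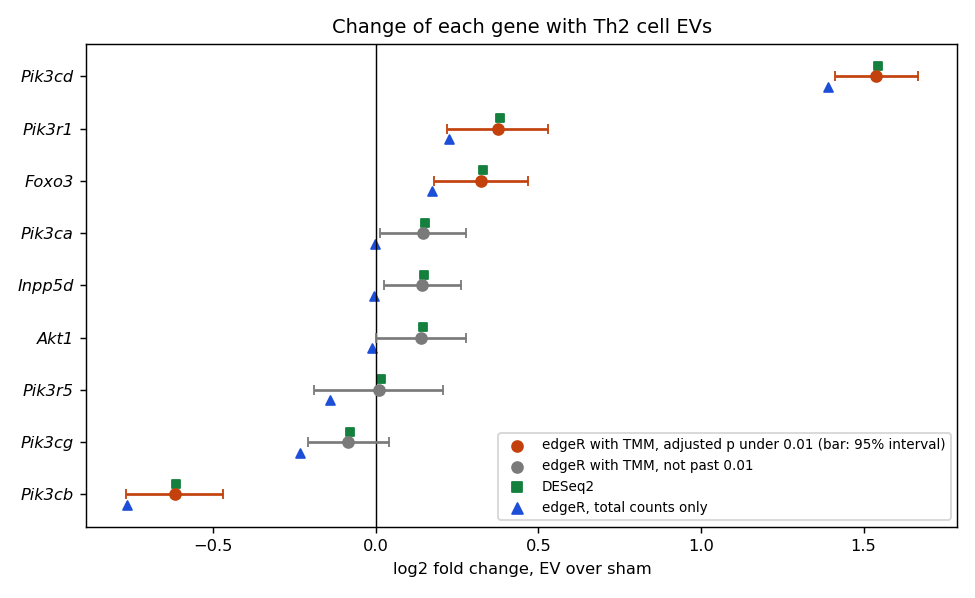
Log2 fold change, EV over sham (x axis), of each of the 9 genes by edgeR with TMM (circles, orange where the adjusted p is under 0.01, bars for the 95% interval), by DESeq2 (green squares) and by edgeR on total counts alone (blue triangles). Pik3cd and Pik3cb lie outside the other genes under all 3 settings, and Pik3ca, Inpp5d and Akt1 move to about 0 on total counts alone.

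The list of other class I subunits and adaptors had 4 of 15 genes higher (26.7%) and 2 lower (13.3%), beside the same 12.1% and 11.6% of all genes, with a median log2 fold change of -0.01. Irs2, an adaptor that brings PI3K to receptors, rose from 2273 ± 88.8 (SD, n = 3) in sham to 3946 ± 119 (SD, n = 3) in EV cultures (log2 fold change 0.80, adjusted p = 7.46e-06). The adaptor Gab1 fell from a low level, with 147, 222 and 217 normalized counts in sham and 22.0, 37.7 and 27.0 in EV cultures (log2 fold change -2.75, adjusted p = 8.39e-05). Cblb, a ubiquitin ligase that restrains the pathway, fell (-0.34, adjusted p = 0.00223), and this call was lost without EV replicate 1 (adjusted p = 0.0202) or EV replicate 2 (0.0177). The 4 class II and III PI3K genes in the table, with a median log2 fold change of 0.0073, had adjusted p from 0.0278 to 0.505 by edgeR's quasi-likelihood test, and the lowest was that of Pik3c2b, which had 52.2 ± 9.68 (SD, n = 3) in sham and 104.5 ± 12.7 (SD, n = 3) in EV cultures.

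Among lipid phosphatases, Inpp5d, which encodes the blood cell phosphatase SHIP1, had 14825.5, 15278 and 14072 normalized counts in sham and 15946, 16280.3 and 16541.5 in EV cultures. All EV cultures lay above all sham cultures by a narrow margin. The log2 fold change of 0.14 (standard error 0.0533, 95% interval 0.02 to 0.26) did not pass (adjusted p = 0.0622) and was -0.0062 on total counts alone. Its relative Inppl1, which encodes SHIP2, had 1090.3, 2219 and 1617 in sham and 264, 280.3 and 267 in EV cultures. Inppl1 fell to 0.165 of its sham mean (log2 fold change -2.60, standard error 0.222, adjusted p = 1.19e-05), and the sham cultures spread widely, with replicate 1 lowest as for Gab1 and for the summed macrophage genes. The part of macrophage RNA in the Gab1 and Inppl1 values was not tested. Per kilobase, Inpp5d had 2983 ± 123 (SD, n = 3) and Inppl1 329 ± 113 (SD, n = 3) normalized counts in sham cultures, against 3293 ± 60.5 (SD, n = 3) and 54.1 ± 1.75 (SD, n = 3) in EV cultures.

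The list of lipid phosphatases and inhibitors had 3 of 15 genes higher (20.0%) and 4 lower (26.7%), where 12.1% and 11.6% of all genes were, with a median log2 fold change of -0.11. The phosphoinositide phosphatase gene Inpp5j had 12542 ± 1344 (SD, n = 3) in sham and 22170.1 ± 1297 (SD, n = 3) in EV cultures and rose (log2 fold change 0.82, adjusted p = 2.97e-05). Dok2, an adaptor that restrains tyrosine kinase signals, rose 1.87-fold (0.90, adjusted p = 3.15e-06), with 2651 to 2933 normalized counts in sham and 5155 to 5329.9 in EV cultures. Its relative Dok1, also in this list, fell (-0.76, adjusted p = 4.97e-05). Inpp5f, a phosphatase that acts on phosphoinositides, fell to 0.503 of its sham mean (-0.99, adjusted p = 1.24e-05).

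Genes for proteins that bind PIP3 moved in both directions, with 5 of 20 genes higher and 5 lower (25.0% each, beside 12.1% and 11.6% of all genes) and a median log2 fold change of 0.10. The TEC family kinases Btk and Tec, which PIP3 brings to the membrane, both rose. Btk had 5230.5, 4807 and 5154 normalized counts in sham and 8376, 8595 and 8739 in EV cultures (log2 fold change 0.76, adjusted p = 5.99e-06). Tec had 4384, 3378 and 3948 in sham and 5579, 5678 and 5690.5 in EV cultures (0.53, adjusted p = 0.000988). Neither gene overlapped between groups. Adap2 (-1.57, adjusted p = 2.4e-05) and Cyth3 (-1.02, adjusted p = 0.000518), which encode regulators of ARF GTPases, fell.

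Akt1, which encodes the kinase that PIP3 recruits, had 12578, 12284 and 11276 normalized counts in sham and 12634, 13303 and 13827 in EV cultures. The lowest EV culture lay just above the highest sham culture. The means were 12046 ± 683 (SD, n = 3) and 13254 ± 598 (SD, n = 3), and the log2 fold change of 0.14 (standard error 0.0619, 95% interval -0.00041 to 0.28) did not pass (adjusted p = 0.113). On total counts alone it was -0.0111. Akt2 went from 3186 ± 85.9 (SD, n = 3) to 3738 ± 99.6 (SD, n = 3) and fell short of the threshold (0.23, adjusted p = 0.0127), which it passed by DESeq2 (adjusted p = 0.00269) and without sham replicate 1 (0.00835). Of the 31-base words of Akt2, 13.3% recur in its pseudogene.

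The list of AKT kinases and regulators had 4 of 17 genes higher (23.5%) and 2 lower (11.8%), beside 12.1% and 11.6% of all genes, with a median log2 fold change of 0.03. Sgk1, an AKT-related kinase, had 1866, 2898 and 2645 normalized counts in sham and 1149.9, 1263 and 1206 in EV cultures. It fell to 0.489 of its sham mean (log2 fold change -1.03, adjusted p = 0.000283). Sham replicate 1, lowest in summed macrophage genes, was also the lowest sham culture for Sgk1, and for Cyth3, Deptor, Ywhah and Dok1. It was not the lowest for Phlpp1, Adap2, Inpp5f, Cblb, Gng2, Pik3cb, Bcl6, Gabarapl1 and Bcl2l11, which were also called lower. The share of all genes with this culture lowest in sham was not taken. The part of macrophage RNA in all these genes was not tested. Phlpp1, a phosphatase that dephosphorylates AKT, fell as well (-0.71, adjusted p = 0.00074). The pseudokinase Trib1 (0.44, adjusted p = 0.000967) and the phosphatase subunit Ppp2r5c (0.36, adjusted p = 0.000579) rose, and Ppp2r5c lost its call on total counts alone (adjusted p = 0.011). Among AKT substrates and the mTORC1 arm, 3 of 17 genes were higher (17.6%) and 1 was lower (5.88%), the former near and the latter below the 12.1% and 11.6% of all genes, with a median log2 fold change of -0.02. Deptor, an inhibitor of mTOR, had 151 ± 24.4 (SD, n = 3) in sham and 40.3 ± 7.98 (SD, n = 3) in EV cultures and fell (-1.90, adjusted p = 0.000656). Tbc1d1, a RAB GTPase-activating AKT substrate, rose (0.51, adjusted p = 9.39e-05). Mdm2, a ubiquitin ligase, also rose (0.28, adjusted p = 0.00322), but kept its call in only 1 of the 6 fits that left a culture out (adjusted p from 0.00207 to 0.0219).

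Foxo3, the transcription factor that AKT holds in the cytoplasm, was higher. It had 11211.5, 9907 and 9728 normalized counts in sham and 12585, 12925.5 and 13068 in EV cultures. All EV cultures lay above all sham cultures, and sham replicate 1 lay nearest to them. The means were 10282 ± 809.8 (SD, n = 3) and 12859 ± 248 (SD, n = 3), a 1.25-fold rise (log2 fold change 0.32, standard error 0.0646, adjusted p = 0.00324). It lies on the minus strand of chromosome 10 (42181841 to 42276755). The call depended on the cultures included: it was lost without sham replicate 2 (adjusted p = 0.0134), sham replicate 3 (0.0164), EV replicate 2 (0.0172) or EV replicate 3 (0.0177), and on total counts alone (0.17, adjusted p = 0.0434). The genes whose log2 CPM correlated most with Foxo3 over the 6 cultures, among 5155 genes with a mean log2 CPM of at least 5, were Rfx7 (Pearson r = 0.9988), Cds2 (0.9984) and C2cd3 (0.9982). For Akt1 they were Hectd3 (0.9971), Was (0.9869) and Trappc12 (0.9836). With so few points, which share their groups, these values are a description.

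The other FOXO genes did not pass. Foxo1 had 852 ± 35.4 (SD, n = 3) normalized counts in sham and 807 ± 43.8 (SD, n = 3) in EV cultures (log2 fold change -0.08, 95% interval -0.28 to 0.12, adjusted p = 0.548). Foxo4 had 1749.6 ± 153 (SD, n = 3) and 1566 ± 34.0 (SD, n = 3) (-0.16, 95% interval -0.34 to 0.02, adjusted p = 0.149). Per kilobase, Foxo3 stood above both of them in every culture, with 1421 to 1637 in sham, where Foxo4 had 498 to 590.1 and Foxo1 94.1 to 102. The list of FOXO factors and regulators had 2 of 13 genes higher (15.4%) and 1 lower (7.69%), near the 12.1% and 11.6% of all genes, with a median log2 fold change of -0.02. The adaptor genes Ywhaz and Ywhah, whose proteins bind phosphorylated FOXO factors, moved in opposite directions. Ywhaz had 18916 ± 843 (SD, n = 3) in sham and 28337 ± 1133 (SD, n = 3) in EV cultures and rose (0.58, adjusted p = 2.73e-05), and Ywhah fell (-0.56, adjusted p = 0.000621). Stk4, the kinase MST1 that phosphorylates FOXO factors, rose (0.35, adjusted p = 0.000933) and had a smaller change that did not pass on total counts alone (0.21, adjusted p = 0.0169).

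Of 40 listed FOXO target genes, 37 were tested, of which 12 were higher, 11 lower and 14 did not pass. That is 32.4% higher and 29.7% lower, beside 12.1% and 11.6% of all genes tested, and the median log2 fold change was 0.05. Depp1 was at 0 in all cultures. At least 2-fold changes were seen in 9 of the targets, of which Cdkn1a, Il7r, Fbxo32 and Gabarapl1 are named here after their values were seen.

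Of the targets that rose, Klf2 had the largest fold. Klf2, a transcription factor of quiescence and traffic, had 917, 607 and 970 normalized counts in sham and 3562, 3429 and 4009.8 in EV cultures. It rose 4.40-fold (log2 fold change 2.14, standard error 0.152, adjusted p = 3.72e-06), with no overlap. Cited2, a transcriptional co-regulator, had 2616, 2129 and 2315 in sham and 8198, 7507 and 7369 in EV cultures, a 3.27-fold rise (1.71, adjusted p = 3.85e-07). The cell cycle inhibitor Cdkn1a rose 2.82-fold (1.498, adjusted p = 5.5e-07).

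Of the targets that fell, Bcl6 had the largest fold. Bcl6, a transcriptional repressor, had 1558, 1668 and 1452 normalized counts in sham and 225, 262 and 265 in EV cultures. It fell to 0.161 of its sham mean (log2 fold change -2.64, standard error 0.106, adjusted p = 9.31e-08). S1pr1, a receptor for the lipid sphingosine 1-phosphate, had 525, 767 and 730.2 in sham and 129.9, 173 and 148 in EV cultures (-2.16, adjusted p = 1.22e-05). Il7r (-2.15, adjusted p = 6.96e-05), the ubiquitin ligase gene Fbxo32 (-1.28, adjusted p = 4.59e-05) and the autophagy gene Gabarapl1 (-1.22, adjusted p = 6.24e-06) fell as well. The pro-apoptotic gene Bcl2l11, which encodes BIM, had 2606, 2458 and 2446 in sham and 1322, 1476 and 1326 in EV cultures (-0.87, standard error 0.0724, adjusted p = 1.07e-05). S1pr1, Il7r and Fbxo32 had their lowest sham values in replicate 1, the sham culture with the lowest summed macrophage genes. Bcl6, Gabarapl1 and Bcl2l11 did not. The part of macrophage RNA in all these targets was not tested.

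**Figure D4:**
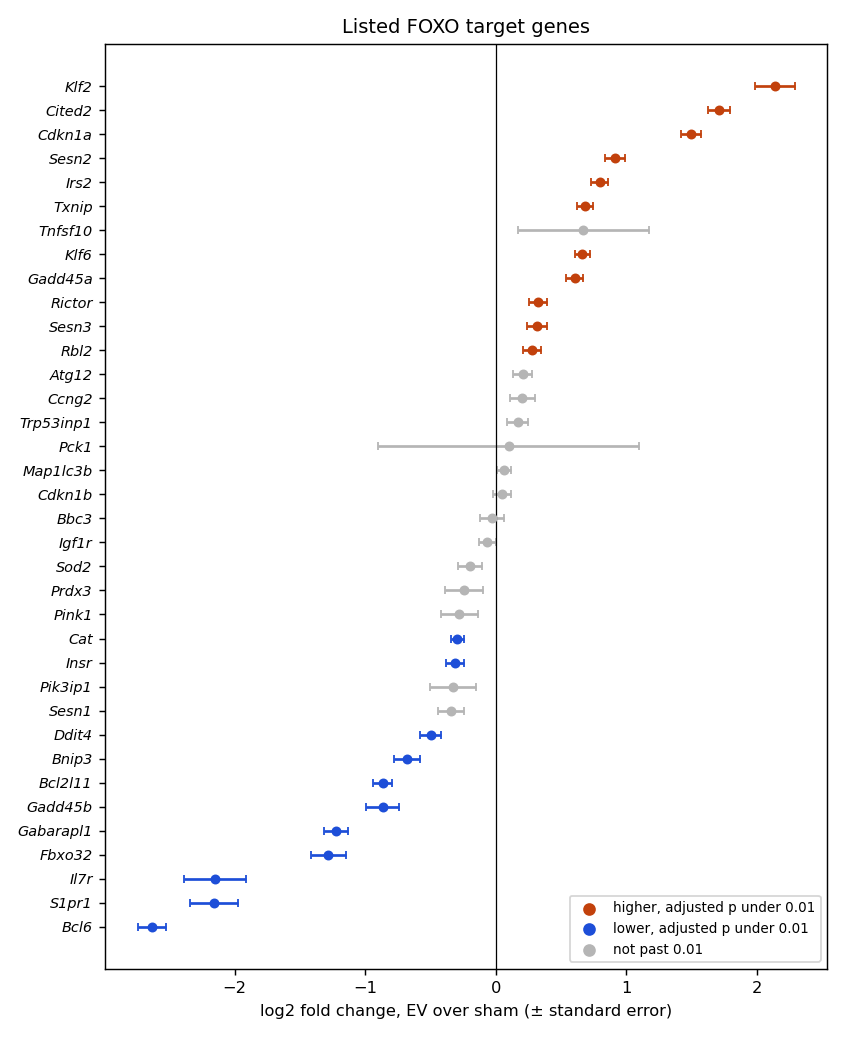
Log2 fold change, EV over sham (x axis), of 36 of the 37 FOXO target genes tested, with standard errors as bars. Targets called higher (orange, 11) and lower (blue, 11) lie on both sides of 0, from Klf2 at 2.14 to Bcl6 at -2.64.

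Over all pathway lists together, 148 genes besides the 9 were tested, each counted once, of which 34 were higher, 27 were lower and 87 did not pass. These are 23.0% higher and 18.2% lower, with a median log2 fold change of -0.01. Over all genes tested the shares were 12.1% and 11.6%. Past 2-fold as well were 4 of the higher and 11 of the lower genes, or 2.7% and 7.43% of the 148, near the 3.1% and 6.35% of all genes tested. FOXO targets made up 4 and 5 of them.

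**Figure D5:**
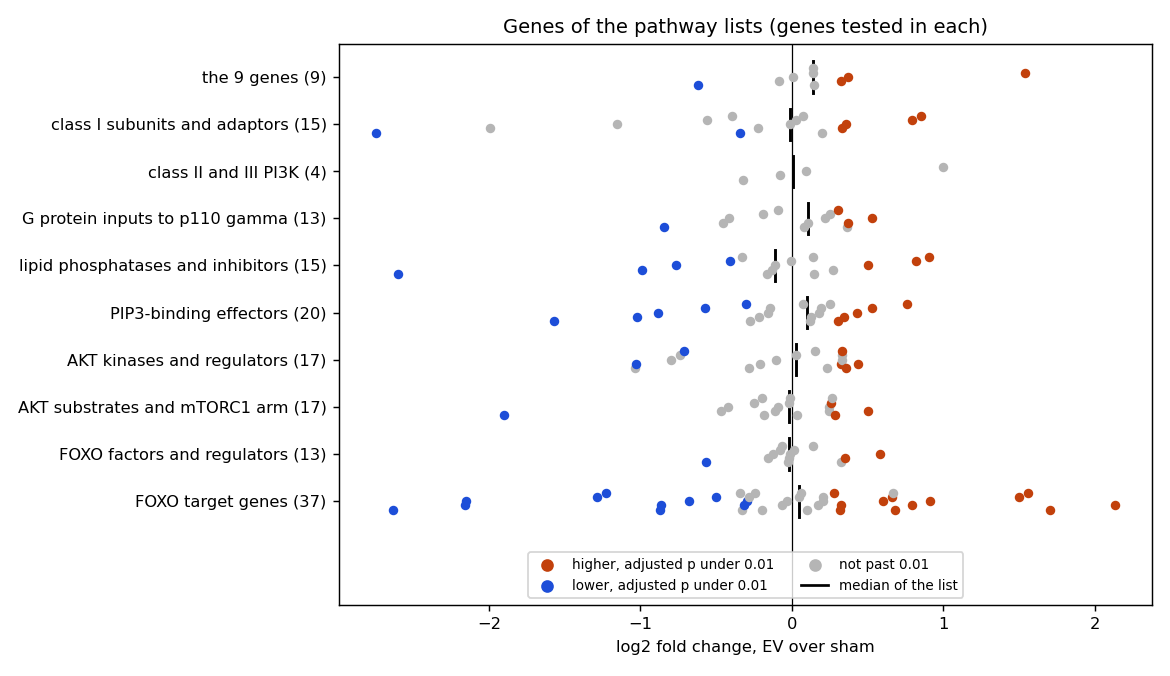
Log2 fold change, EV over sham (x axis), of the 9 genes and of the genes tested in each pathway list (rows, with the number tested), as points colored by call and with the median of each list as a black bar. The medians of the lists lie between -0.11 and 0.10, with called genes on both sides of 0 in all lists but the class II and III PI3K genes.

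Between genes, levels were compared per kilobase of the longest coding transcript. In sham cultures Akt1 was highest at 4478 ± 254 (SD, n = 3) normalized counts per kilobase, followed by Inpp5d at 2983 ± 123 (SD, n = 3). Pik3cd (1566 ± 54.6, SD, n = 3), Pik3cg (1522 ± 58.6, SD, n = 3) and Foxo3 (1501 ± 118, SD, n = 3) came next and did not differ beyond their spread. They were followed by Pik3cb (885 ± 60.6, SD, n = 3), Pik3r5 (741 ± 84.6, SD, n = 3), Pik3r1 (587 ± 46.6, SD, n = 3) and Pik3ca (263 ± 3.83, SD, n = 3). In EV cultures Pik3cd rose in this order to 4553 ± 189 (SD, n = 3), next to Akt1 at 4927 ± 222 (SD, n = 3) and above Inpp5d at 3293 ± 60.5 (SD, n = 3). Pik3cb, at 576 ± 16.5 (SD, n = 3), then lay below Pik3r1 (761 ± 21.0, SD, n = 3) and Pik3r5 (745 ± 48.7, SD, n = 3), which did not differ from each other beyond their spread. This order depends on the transcript length taken, an alternative chosen after seeing the data. With the median coding transcript length of each gene, Pik3cd was in place 5 in sham and place 2 in EV cultures, where the longest gave places 3 and 2. In sham cultures Foxo3 (4056 ± 319, SD, n = 3) and Inpp5d (3735 ± 155, SD, n = 3) then stood close together, and in EV cultures Pik3r1 (2987) and Pik3cb (1050.2) both stood above Pik3r5 (745).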

How the data were processed

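Poly(A)-selected RNA of 3 sham and 3 EV cultures was sequenced. The authors checked reads with FastQC, trimmed them with cutadapt and quantified them with Salmon. The genome build mm10 is named in the submitters' processing notes, while annotation, strandedness and versions are not given in the sources used here. The authors deposited estimated counts per gene symbol, which need not be whole, and normalized counts, a signal equal to the count plus 1 divided by a size factor for each sample. The authors' own comparison (fold changes and p-values) was not used.

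Estimated counts were rounded (40.2% were not whole) and tested by the quasi-likelihood method of edgeR 4.0.16 (R 4.3.3) after filterByExpr and TMM scaling, with Benjamini-Hochberg adjustment over 13498 genes and a threshold of 0.01. Depth was 23697573 to 37874393 counts per culture, and counting error weighs most on genes with few counts, such as Gab1 and Deptor. Standard errors were taken as the size of the fold change (log2) over the root of the F statistic. Scripts were tested on simulated data. Shares were compared with a two-sided exact permutation test. Alternatives were DESeq2 1.42.0, limma 3.58.1 on the deposited normalized counts (log2 after adding 1), other scalings, no filter on low counts, a 2-fold rule, the replicate number as a block, other transcript lengths and leaving out each culture.

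The 9 genes and all lists were chosen with earlier results of these data known. The lists were written from general knowledge. Genes named were the 9 genes, the 2 most raised and the 2 most lowered called genes of each list, and Akt2, Foxo1, Foxo4, Pik3r2, Pik3r6 and Bcl2l11, as well as the 3 genes most correlated with Foxo3 and with Akt1 at a mean log2 CPM of at least 5. Pik3c2b, Dok1, Depp1 and single marker genes were named after their values were seen. Transcript lengths and positions came from GENCODE vM21 (GRCm38). Absent from the count table were Pik3c2g, Foxo6, Trim63 and Fasl, and these were not analysed here. Values of a few genes that the rule names are left out here. No sample was left out.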

Additional observations from a re-analysis of the deposited data

How the results depend on the processing

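Results rest on 3 cultures a group, and the calls of Pik3r1 (1.30-fold) and Foxo3 (1.25-fold) depended on which cultures were included. On total counts alone, without TMM, the genes called higher among the 9 went from 3 to 1 and those lower from 1 to 2, and pathway genes called higher from 34 to 20. Under this scaling the log2 fold change was -0.0038 for Pik3ca, -0.23 for Pik3cg, 0.23 for Pik3r1, -0.14 for Pik3r5, -0.0062 for Inpp5d, -0.0111 for Akt1 and 0.17 for Foxo3. The median of all genes moved to -0.16 with it. With upper-quartile scaling Pik3r5 was at -0.0375. A 2-fold rule left 1 of the 9 genes higher and 0 lower, 4 pathway genes higher and 11 lower, and 4 FOXO targets higher and 5 lower. With median in place of longest transcript length, the difference in share, EV minus sham, was -1.70 points for Pik3ca, -15.7 for Pik3cb and -12.7 for Pik3cg.

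With each culture left out in turn, the count of the 9 genes called higher ranged from 1 to 3, and the log2 fold change from 0.34 to 0.45 for Pik3r1, from -0.0448 to 0.10 for Pik3r5 and from 0.29 to 0.40 for Foxo3. Over all genes, the calls were lowest without EV replicate 3, at 1071 higher and 1018 lower. Pik3cd and Pik3cb kept their direction and their call under all alternatives run for the 9 genes, apart from the 2-fold rule for Pik3cb.

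The labels do not say whether cultures of the same replicate number belong together, and the values did not settle it. Cultures of the same number correlated in their deviations from the group means at 0.117, 0.0846 and 0.0371. EV replicate 1 and EV replicate 2 correlated best with the sham culture of their own number, while EV replicate 3 correlated best with sham replicate 2 (0.0487). With the replicate number as a block, 1794 genes were higher and 1781 lower over all genes, 38 pathway genes were higher and 29 lower, and the log2 fold change was 1.54 for Pik3cd, -0.62 for Pik3cb, 0.38 for Pik3r1 and 0.33 for Foxo3, with no call among the 9 genes changed.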
